A study of Arabidopsis thaliana with 6 samples.

Results

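The 8 actin genes of Arabidopsis thaliana described here are ACT1, ACT2, ACT3, ACT4, ACT7, ACT8, ACT11 and ACT12, picked by locus identifier out of 33602 loci counted. Wild-type Col seedlings grew for 9 days under cycles of 12 h light and 12 h darkness at 22 °C. The pulse group was then given white light for 2 h from ZT18, that is 18 h after lights on and within the night, while the control group stayed dark. Both groups were harvested at ZT20, each has 3 RNA-seq libraries, and the labels describe the material as pooled tissues of seedlings. A pool of tissues has 1 limit that touches every value below: fewer cells of a type and less RNA per cell cannot be told apart.

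Actin is the protein from which plant cells build their thin filaments, which carry organelles and vesicles, position the nucleus and the chloroplasts, and shape growing cells. Arabidopsis has a vegetative class of actin genes, ACT2, ACT7 and ACT8, used in leaves, stems and roots, and a reproductive class, ACT1, ACT3, ACT4, ACT11 and ACT12, best known from pollen and other flower tissues. The proteins are very alike. ACT2 and ACT8 are both known for root hair growth, and ACT7 for its response to auxin and its role in germination and root growth. Several of these genes, ACT2 and ACT8 above all, also serve as constant references in quantitative PCR.

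The light pulse moved the vegetative genes in opposite directions. ACT2 and ACT8 fell, ACT7 and ACT11 rose, and ACT1 rose by a small margin. By edgeR's quasi-likelihood test 5 of the 6 actin genes with enough counts to be tested were called at a Benjamini-Hochberg adjusted p under 0.05, 3 higher and 2 lower in light. That share has to be read against the whole transcriptome, in which 56.3% of the 20151 tested genes were called, 28.9% higher and 27.4% lower. Being called is therefore the common outcome in these libraries, and the values below describe direction, size and composition. The median change was 0.19 over the 6 tested actins and -0.00 over all tested genes. In 4 actin genes, ACT2, ACT7, ACT8 and ACT11, the light and dark values did not overlap, as in 62.4% of all tested genes. Each change is a log2 ratio of light to dark, given ± its standard error from 3 libraries per group. Levels are counts scaled to a common library size (CPM) after TMM, a correction for library composition.

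Each library held from 8695843 to 12689543 gene counts. Within a group, libraries correlated at 0.989 to 0.991 (log CPM) and across groups at 0.925 to 0.939. The rows of ribosomal RNA were largest in dark C, with 4.77% of counts, and light A, with 4.40%, while the remaining 4 libraries had 0.799% to 1.75%. Calls lost without that pair are therefore stated for the genes named below, as is the call that ACT3 gained. Genes known to answer light marked the groups as labelled: ELIP1, a light stress protein of the chloroplast, rose by 7.32 ± 0.25, GI, a clock gene, by 6.18 ± 0.16, and CHS, the first enzyme of flavonoid synthesis, by 3.58 ± 0.09.

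ACT2 (AT3G18780, TAIR10 chromosome 3, 6474842 to 6477204) was the most abundant actin mRNA in both groups. The deposited gene table names it LSR2, which the RefSeq gene table expands as light stress-regulated 2. Its counts were 11926, 12007 and 12161 in dark libraries A, B and C, and 6320, 7082 and 4666 in light libraries A, B and C. After scaling these were 938, 1012 and 938 CPM in the dark and 596, 593 and 559 CPM in light. All 3 light libraries lay far below all 3 dark ones. The mean went from 963 ± 43.0 to 583 ± 20.6 CPM (SD, n = 3), a fall to a level 1.65-fold lower, with a log2 change of -0.72 ± 0.06 (edgeR adjusted p = 7.8e-08).

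ACT8 (AT1G49240, chromosome 1, 18215872 to 18218313), the closest partner of ACT2, had the larger fall. It measured 415, 441 and 417 CPM in the dark libraries and 219, 232 and 208 CPM in the light libraries. The groups stood well apart, and no light library came near any dark one. Its mean went from 424 ± 14.4 to 220 ± 12.0 CPM (SD, n = 3), 1.93-fold lower, and the log2 change was -0.95 ± 0.06 (edgeR adjusted p = 2.3e-09). In 1236 of all tested genes, ACT8 included, the log2 change was as low or lower.

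ACT7 (AT5G09810, chromosome 5, 3052097 to 3054614), the auxin-responsive vegetative actin, went the other way. Its levels were 297, 307 and 341 CPM in the dark and 476, 472 and 462 CPM in light. Every light library was above every dark library, and the light values were tightly grouped. The mean rose from 315 ± 23.3 to 470 ± 7.41 CPM (SD, n = 3), 1.49-fold, with a log2 change of 0.58 ± 0.06 (edgeR adjusted p = 1.2e-06).

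Among the reproductive class, ACT11 (AT3G12110, chromosome 3, 3857843 to 3859798) had the largest change. This gene is known from pollen, ovules and young growing tissue. It stood at 18.2, 18.8 and 20.0 CPM in the dark and at 35.1, 34.2 and 34.6 CPM in light. The groups did not overlap, and the light libraries differed from each other by less than the dark ones. Its mean rose 1.82-fold, from 19.0 ± 0.91 to 34.6 ± 0.45 CPM (SD, n = 3), a log2 change of 0.87 ± 0.07 (edgeR adjusted p = 1.2e-07).

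ACT1 and ACT3 form a pair of low, nearly equal genes. ACT1 (AT2G37620, chromosome 2, 15779174 to 15781561) measured 32.4, 34.2 and 38.2 CPM in the dark and 40.8, 38.0 and 42.5 CPM in light. Dark library C was just above light library B, so the groups overlapped. Its log2 change was 0.21 ± 0.08 (edgeR adjusted p = 0.0328). The call was lost with scaling to library totals (0.06, adjusted p = 0.496), with DESeq2 (adjusted p = 0.110), and without dark library A (0.150), dark B (0.0687), light A (0.0874) or light C (0.111, adjusted p in each case).

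ACT3 (AT3G53750, chromosome 3, 19915288 to 19917641) measured 32.2, 29.3 and 37.7 CPM in the dark and 36.4, 36.2 and 40.0 CPM in light. Again dark library C overlapped the light values. Its log2 change of 0.18 ± 0.09 did not pass (edgeR adjusted p = 0.104). Among the fits that leave out libraries, it passed without dark library C (0.27 ± 0.08, adjusted p = 0.00971) and without both rRNA-rich libraries (0.29 ± 0.10, adjusted p = 0.0226). Dark library C had the highest value of the dark group for both genes and also the highest rRNA share. The part of that library's composition in these values was not tested.

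The last reproductive genes, ACT4 and ACT12, are known mainly from pollen. ACT4 (AT5G59370, chromosome 5, 23949739 to 23951837) had 3, 3 and 4 reads in the dark libraries and 2, 4 and 7 in the light libraries. ACT12 (AT3G46520, chromosome 3, 17128263 to 17130210) had 0 reads in all 6 libraries, which allows a level of up to 0.231 to 0.359 CPM per library at 3 counts (counting error only). Neither gene passed the filter on low counts, and no fold is given. Of 9 pollen markers, 4 were likewise at 0 in every library and 2 could be tested. Their summed level was 10.2 to 13.6 CPM in the dark and 8.86 to 9.80 CPM in light. Of the 2 tested, ANX1, a receptor kinase of the pollen tube, fell (log2 -0.49 ± 0.13, edgeR adjusted p = 0.00476), as did 27.4% of all tested genes. The other, ACA9, was at 0.34 ± 0.34 and did not pass (edgeR adjusted p = 0.420). ANX1 made up most of the sum, with means of 9.05 CPM in the dark and 6.46 CPM in light.

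**Figure D1:**
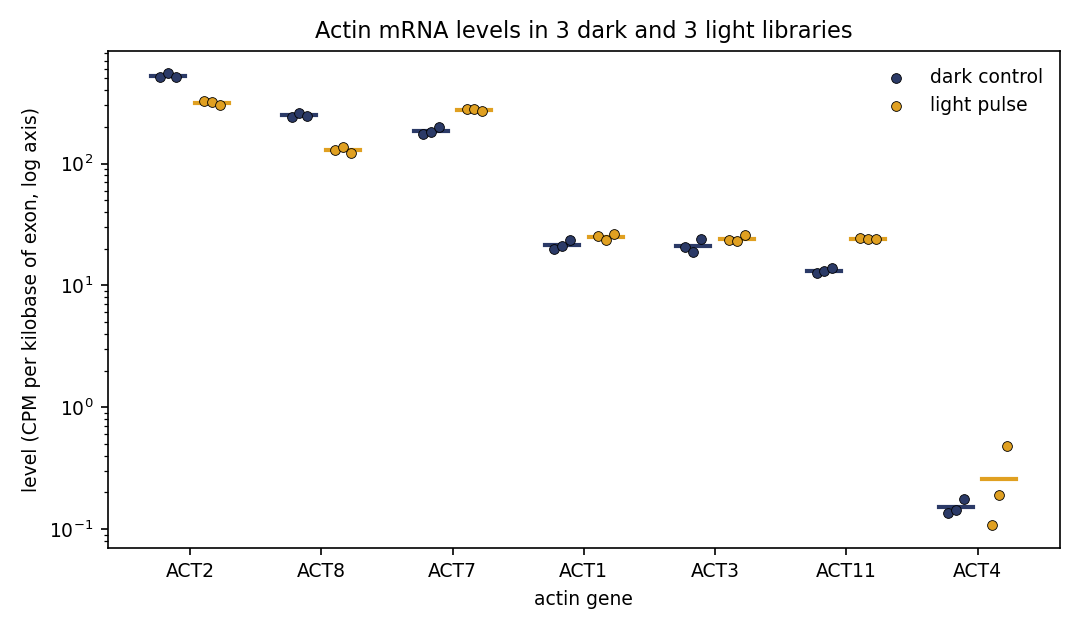
Level of each actin gene per library in CPM per kilobase of exon on a log axis (points, 3 dark and 3 light libraries; bars, group means). ACT2 and ACT8 sit lower in light, ACT7 and ACT11 higher, ACT4 is close to the counting floor in both groups, and ACT12, at 0 reads, is not drawn.

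Divided by exon length, levels can be compared between genes. In the dark the order was ACT2 at 523 ± 23.4, ACT8 at 248 ± 8.42, ACT7 at 185 ± 13.7, ACT1 at 21.6 ± 1.82, ACT3 at 21.2 ± 2.75 and ACT11 at 13.2 ± 0.63 CPM per kilobase (SD, n = 3). ACT1 and ACT3 did not differ beyond their spread, and all other neighbours in that order did not overlap. In light ACT2 was at 316 ± 11.2, ACT7 at 276 ± 4.36, ACT8 at 129 ± 7.01, ACT1 at 25 ± 1.43, ACT11 at 24.1 ± 0.31 and ACT3 at 24.1 ± 1.38 CPM per kilobase. ACT7 was thus below ACT8 in the dark and above it in light, where it came next after ACT2 without overlap with either. ACT11 drew level with ACT1 and ACT3, whose values overlapped its own.

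The ratios between members show the same exchange. ACT2 mRNA was 2.82 times as abundant as ACT7 mRNA per kilobase in the dark and 1.14 times in light. The ratio of ACT7 to ACT8 went from 0.745 to 2.15, so ACT8 was the more abundant of that pair in every dark library and ACT7 in every light library. ACT2 over ACT8 changed less, from 2.10 to 2.46, yet without overlap between the groups. ACT1 over ACT3 was 1.02 in the dark and 1.04 in light (exact permutation test, p = 0.8). Of the 15 pairs, 14 had no overlap between groups. Each of the 14 had an exact permutation p = 0.1 (two-sided), the smallest that 3 against 3 libraries can give. The Benjamini-Hochberg adjusted p was 0.107, so none of them could pass a threshold of 0.05. All 15 ratios come from the same 6 genes, 4 of which did not overlap on their own, as in 62.4% of all tested genes. Ratios between other genes were not computed, so the count of pairs has no background share.

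As shares of the summed actin level per kilobase, ACT2 made up 51.6% ± 1.37 in the dark and 39.8% ± 0.49 in light (SD, n = 3). ACT8 went from 24.5% ± 0.43 to 16.2% ± 0.58. ACT7 went from 18.3% ± 1.30 to 34.8% ± 0.33, a gain of 16.5 percentage points, which left it with a larger share than ACT8. The low genes also took larger shares in light: ACT11 went from 1.31% to 3.04%, ACT1 from 2.13% to 3.15% and ACT3 from 2.10% to 3.04%. For each of the 6 genes the light and dark shares did not overlap (exact permutation test, p = 0.1, the smallest possible). Shares within other gene families were not computed, so this has no background share either. These shares are relative to the family, so a gene that kept its own level would gain share when ACT2 and ACT8 fall.

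**Figure D2:**
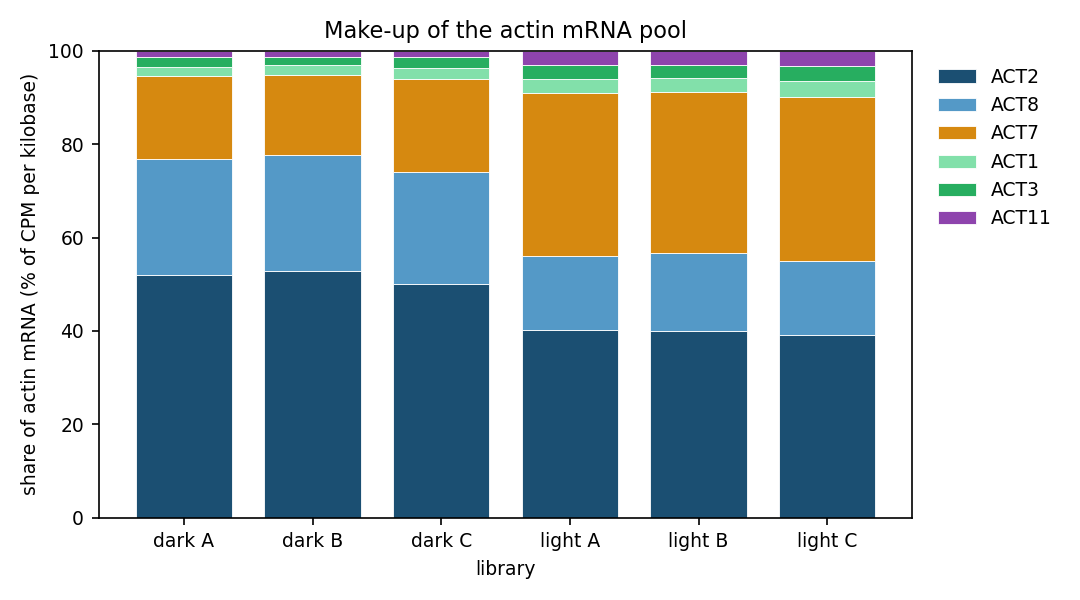
Share of each actin gene in the summed actin level (CPM per kilobase), stacked to 100% for each of the 6 libraries. The mean ACT7 segment is 18.3% in dark libraries and 34.8% in light libraries, while ACT2 and ACT8 narrow.

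The family as a whole was lower in light. Summed over the 8 genes, the level was 981, 1041 and 1016 CPM per kilobase in the dark and 805, 806 and 773 in light. No light library reached the lowest dark one. The means were 1013 ± 30.4 and 795 ± 18.6 (SD, n = 3), a log2 change of -0.35 (exact permutation test, p = 0.1). Without ACT2 the sum was 490 ± 17.8 in the dark and 479 ± 7.62 in light, a log2 change of -0.03 (exact permutation test, p = 0.4). ACT2 and ACT8 together changed by -0.79, and ACT1, ACT3, ACT7 and ACT11 together by 0.54. Actin genes held 0.188% of all counts in the dark and 0.132% in light.

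The scaling of libraries bears on all of these values. With library totals alone, the median change of all tested genes shifts to -0.14, and 4184 genes are called higher against 7397 lower. The called actins kept their directions there. ACT8 was at -1.09, ACT2 at -0.87, ACT7 at 0.44 and ACT11 at 0.72, and the summed actin level changed by -0.49. In each of 12 alternative fits, ACT2, ACT8, ACT7 and ACT11 were called in the same direction. Across them the log2 change ran from -1.09 to -0.91 for ACT8, from -0.87 to -0.69 for ACT2, from 0.44 to 0.63 for ACT7 and from 0.72 to 0.90 for ACT11.

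**Figure D3:**
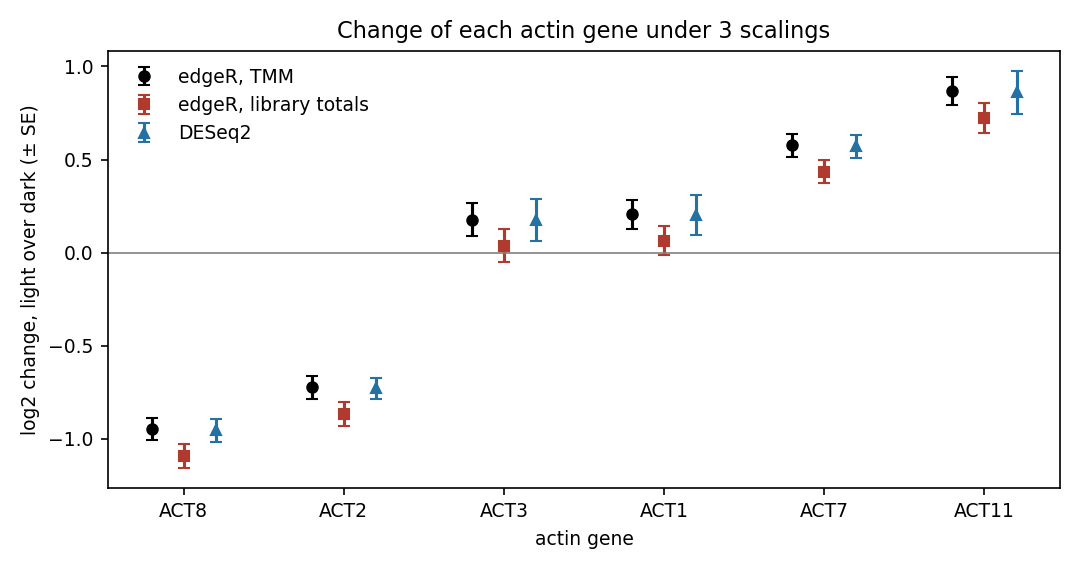
Log2 change (light over dark, ± SE, n = 3 libraries per group) of the 6 tested actin genes with edgeR and TMM scaling, edgeR with library totals only, and DESeq2. ACT8 and ACT2 lie below 0 and ACT7 and ACT11 above 0 in all of them, while ACT1 and ACT3 approach 0 with library totals.

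Because actins serve as references for quantitative PCR, each was also set against 9 other genes in common use as references. The log2 change of ACT2 relative to them ran from -1.54 to -0.55 with a median of -0.67, and that of ACT8 from -1.76 to -0.77. Both were negative against all 9. ACT11 was positive against all 9, from 0.06 to 1.05, and ACT7 against 7 of the 9. ACT1 and ACT3 were also positive against 7, although ACT3 was not called. Each sign follows from the actin's own change and that of the reference, so these counts are no separate evidence. The 2 against which ACT7 was not positive are those that rose most themselves, GAPC2, a glycolytic enzyme (0.81 ± 0.06, edgeR adjusted p = 1.5e-08), and the locus AT5G60390 (0.58 ± 0.07, edgeR adjusted p = 2.4e-06). Also called among the references, IPP2, an isomerase of isoprenoid synthesis, rose by 0.16 ± 0.06. That call was lost with library totals, with DESeq2, without the rRNA-rich pair and without dark library A, dark C, light B or light C (highest adjusted p = 0.826). None of the 9 was called lower with TMM scaling, and 3 were with library totals. Values of the polyubiquitin gene UBQ10 (-0.06 ± 0.06) and of PP2AA3, a phosphatase subunit (0.10 ± 0.06), did not pass. As arithmetic, dividing a target by ACT8 in these samples multiplies its light to dark ratio by 1.93 and dividing by ACT2 by 1.65. Dividing by ACT7 multiplies it by 0.670 and by ACT11 by 0.549.

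The actin genes share a layout, which allows the change to be read along each gene. A 614-base exon part occurs in all 8 genes and a 394-base part in 7. In ACT2 the matching part has 464 bases, the length of the 70-base and 394-base parts of ACT8 joined. The coding parts of these genes are closely alike in sequence while their outer, partly untranslated parts are not, so reads from inner parts could fit more than 1 gene. How the authors treated such reads is not given in the sources used here. Among plastid genes present in identical copies, 9 pairs had counts that differed by at most 0.0148%, so reads that fit both copies appear at both in these tables. ACT12, which shares the 614-base and 394-base lengths, was at 0 in each of its parts.

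In ACT7, ACT11, ACT8 and ACT2 the outer and inner parts moved the same way. In ACT7 the log2 change was 0.61, 0.56, 0.58, 0.55 and 0.63 from the first part to the last in genome order, and in ACT11 it was 0.86, 0.90, 0.82, 0.80 and 1.06. In ACT8 the values were -0.93, -0.94, -1.05, -0.95 and -0.85. All 5 parts of each of these genes kept light and dark libraries apart. Parts repeat the separation of their own gene, and the share of such parts over all genes was not computed. ACT2 had a graded pattern, with -0.92 in its first 211-base part, then -0.84, -0.69 and -0.59 in the last. The first part fell from 1405, 1364 and 1517 reads in the dark to 665, 734 and 471 in light, and held 11.9% of the gene's count in the dark and 10.3% in light. In ACT1 the 94-base, 614-base and last parts were at 0.23, 0.24 and 0.37, the 3 parts between the first of these and the 614-base part were at -0.15 to 0.05, and in ACT3 values ran from -0.00 to 0.35.

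**Figure D4:**
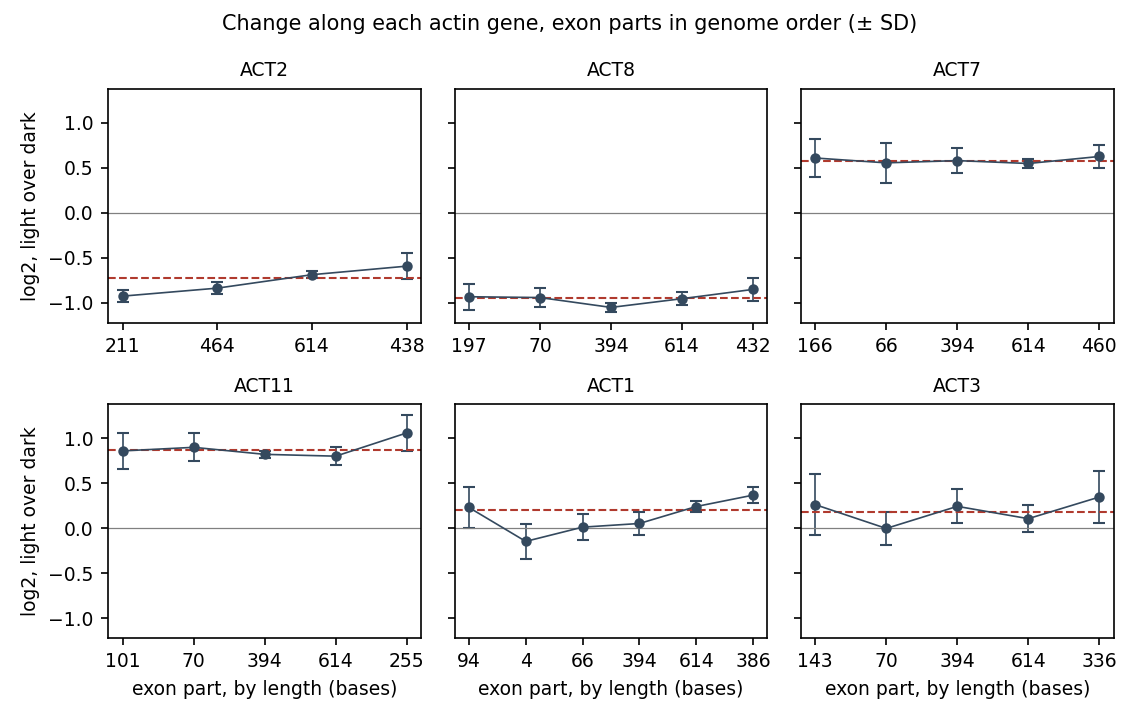
Log2 change of CPM in each exon part with at least 10 reads in every library (points, difference of means over 3 libraries; bars, pooled within-group SD), in genome order and labelled by length; the dashed red line is the whole gene. The parts of ACT8, ACT7 and ACT11 stay near their gene's line, and those of ACT2 run from -0.92 to -0.59.

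Tests of use, which compare a part with its own gene, called none of these differences. Of 30 exon parts in 6 actin genes, 0 were called (edgeR's quasi-likelihood test with the gene's count as offset), and over all genes 0.0988% of the exon parts tested were called. An unadjusted p under 0.05 was found for 4 of the 30 and for 4.66% of all exon parts tested. The first ACT2 part had a relative use of -0.20 ± 0.04 (adjusted p = 0.177). For the 464-base part it was -0.12 ± 0.03 (adjusted p = 0.284) and for the last part 0.15 ± 0.05 (adjusted p = 0.735). These ACT2 parts had unadjusted p from 0.000393 to 0.00668. The lack of a call does not show that use along ACT2 was unchanged. Among splice junctions 0 of 22 were called, against 0.169% over all genes. On simulated data the junction test found 29.9% of 1.5-fold and 65.7% of 2-fold changes. The lack of a call thus does not show that junction use was unchanged. An unadjusted p under 0.05 was found for 1 of the 22 and for 5.38% of all junctions tested. That junction joins the first ACT2 part to the next. It had 978, 963 and 1023 reads in the dark and 443, 490 and 335 in light, and its use relative to the gene changed by -0.22 ± 0.05 (adjusted p = 0.0776). With no filter on low counts it was called (adjusted p = 0.0357). The next ACT2 junction had 824, 781 and 757 reads in the dark and 429, 431 and 331 in light, and the last had 1016, 1014 and 1050 against 547, 597 and 369. The first ACT8 junction carries the file's mark for several genes and was not tested. Its reads were 238, 251 and 297 in the dark and 140, 120 and 89 in light.

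Little unspliced actin RNA was counted. The 29 introns of the 8 genes that are counted as introns held 68 reads in the dark and 73 in light. The genes held 67120 and 42906 reads. The last ACT2 intron and the first ACT4 intron are annotated as retained and counted among the exon parts instead. That of ACT2 had 3, 3 and 1 reads in the dark and 2, 3 and 2 in light, and that of ACT4 had 0 in every library. No intron had more than 12 reads in a library, and none passed the filter that left 3338 introns in the intron test, of which 6.05% were called. The first ACT3 intron had the most, with 6, 12 and 5 reads in the dark and 4, 3 and 2 in light. Without that filter 18 actin introns could be tested, of which 0 were called and 1 had an unadjusted p under 0.05. Splicing at these genes followed the annotation in nearly every read, since 4 unannotated junctions held 1 read each out of 27768.

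The one alternative event with enough reads for a test was a second 3′ splice site in the first intron of ACT1, 4 bases beyond the first. It was used by 0 of 24, 5 of 33 and 3 of 30 junction reads in the dark and by 6 of 29, 2 of 25 and 4 of 18 in light. The groups overlapped, and the mean share was 8.38% ± 7.70 in the dark and 17% ± 7.81 in light (SD, n = 3, exact permutation test, p = 0.3). The smallest p this test can give is 0.1. Its 4-base part was not called by edgeR either (0 of 1, with 0 at an unadjusted p under 0.05), against 1.19% of such parts over all genes.

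Filament turnover depends on proteins that bind actin, and 9 lists of such genes (89 genes, 82 tested) were set beside the actins. Of these 46 were called, 56.1% of those tested, which is the share of all genes, with 24 higher and 22 lower. Their median change was -0.01, and 4 of those called changed at least 2-fold. The share of all tested genes called with such a change was not computed. Directions in these lists depend on the scaling, so the counts with library totals stand beside each. Over all tested genes 28.9% were higher and 27.4% lower, against 20.8% and 36.7% with library totals.

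Profilins, which bind actin monomers and feed them to growing filaments, had 2 of 4 tested genes higher and 0 lower (1 and 1 with library totals): PRF3 rose by 0.97 ± 0.09 and PRF2 by 0.29 ± 0.06 (edgeR adjusted p = 1.5e-07 and 0.000497). Of 12 tested depolymerizing factors and partners, 3 rose and 2 fell (1 and 4 with library totals). CAP1, which recycles monomers, rose by 0.47 ± 0.06, ADF3 by 0.26 ± 0.06 and ADF1 by 0.16 ± 0.06. ADF9, a member known to bundle filaments, fell by 1.70 on the log2 scale (SE 0.24, adjusted p = 1.8e-05), and ADF2 changed by -0.27 ± 0.06. The level of ADF9 was low, with means of 3.70 CPM in the dark and 1.13 CPM in light. The ADF1 call was lost in 9 of the 12 alternative fits (highest adjusted p = 0.888). Among them were those without the rRNA-rich pair, dark library A, dark C or any 1 of the light libraries.

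Bundling and capping genes had 2 of 11 tested higher and 4 lower (1 and 6 with library totals). AT5G55400 rose by 1.12 ± 0.09 and the fimbrin FIM5 by 0.33 ± 0.10. The villins VLN3 and VLN2, which bundle filaments, changed by -1.0 ± 0.06 and -0.32 ± 0.06, and CPB, a subunit of the capping protein that closes filament ends, by -0.75 ± 0.10. FIM5 was not called with library totals, without dark library A or without light B (highest adjusted p = 0.145).

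New filaments are started by the ARP2/3 complex and by formins. In the ARP2/3 complex, which nucleates branches, 0 of 9 rose and 3 fell, where 27.4% of all tested genes fell. The 3 were ARPC2A (-0.61 ± 0.10), ARPC4 (-0.46 ± 0.15) and ARP3 (-0.36 ± 0.11). DESeq2 called 1 of the 9, lower, against 43.6% of all genes called in either direction. Library totals called 5, all lower, where 36.7% of all tested genes were lower. ARPC4 was lost without light library B or light C (adjusted p up to 0.0745), and ARP3 without the rRNA-rich pair. Its activator, the SCAR/WAVE complex, had 3 of 11 higher and 4 lower (1 and 5 with library totals). SCAR3 rose by 0.87 ± 0.09, SCAR1 by 0.43 ± 0.14 and ABIL4 by 0.27 ± 0.07, while SCAR4 (-0.45 ± 0.10), PIR (-0.27 ± 0.06) and GRL (-0.22 ± 0.06) fell. SCAR1 was not called with library totals, DESeq2 or without the rRNA-rich pair, dark library A or light C (adjusted p up to 0.0840). Formins, which nucleate unbranched filaments, had 2 of 7 higher and 0 lower (1 and 1 with library totals): FH14 at 0.46 ± 0.08 and FH6 at 0.20 ± 0.08. The FH6 call was lost in 7 alternative fits, including those without the rRNA-rich pair, dark library A, dark B, light B or light C (adjusted p up to 0.585).

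Myosins, the motors that run on actin, had 5 of 15 tested genes higher and 5 lower (4 and 5 with library totals). ATM2 rose by 0.88 ± 0.07, XI-B by 0.87 ± 0.14 and XI-K, a main motor of organelle streaming, by 0.38 ± 0.06. XI-H (-0.58 ± 0.07), VIIIA (-0.57 ± 0.09) and MYA1 (-0.52 ± 0.07) fell. The actin-related proteins ARP4 to ARP9, relatives of actin found in the nucleus, had 1 of 6 higher and 4 lower (0 and 4 with library totals). ARP7 rose by 0.34 ± 0.09, and ARP6 (-0.66 ± 0.08), ARP8 (-0.50 ± 0.10) and ARP4 (-0.29 ± 0.07) fell.

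The list of genes for placing chloroplasts along actin in response to light had 6 of 7 higher and 0 lower, where 28.9% of all tested genes were higher, with a median of 0.57. KAC1, a kinesin-like protein needed for the actin that moves chloroplasts, rose by 1.01 ± 0.06, PMI2 by 0.93 ± 0.08 and JAC1 by 0.69 ± 0.06 (edgeR adjusted p = 2.4e-09, 6.9e-08 and 1.8e-07). With library totals 5 were higher and 1 lower. PRF2, ADF3, ABIL4 and ARP7 also lost their calls with library totals (adjusted p from 0.0551 to 0.150) and in no other alternative fit.

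**Figure D5:**
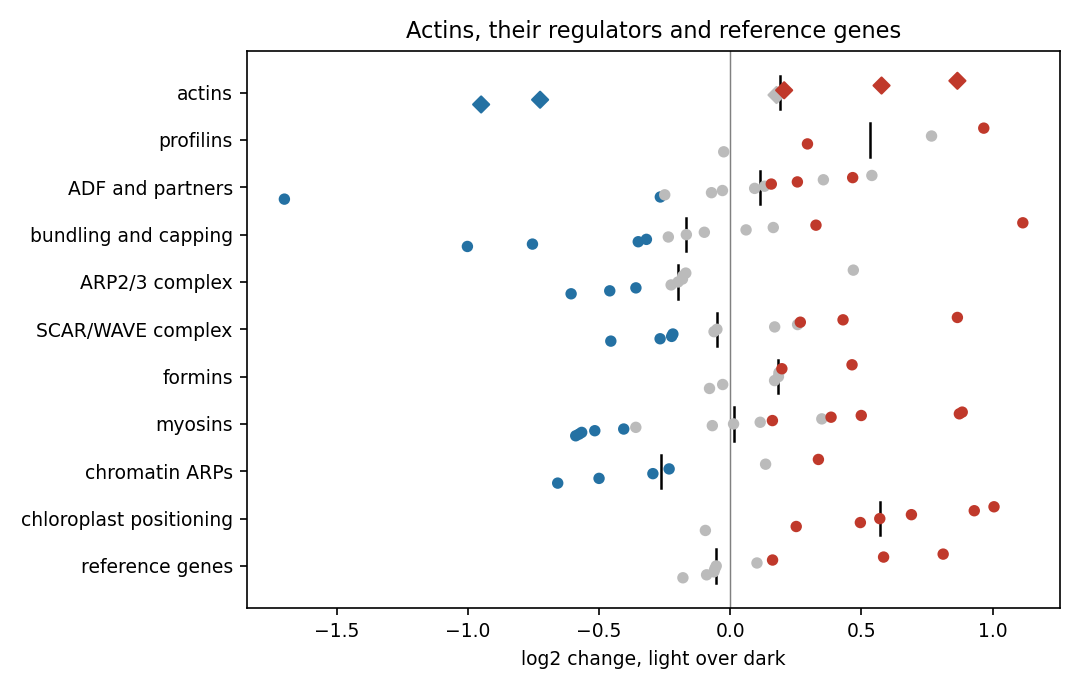
Log2 change (light over dark) of each tested actin gene (diamonds) and of tested genes in the actin regulator and reference lists (circles), red where called higher, blue where called lower and grey where not called; black bars are list medians. ACT8 and ACT2 lie far to the left of the reference genes, and 6 of 7 chloroplast positioning genes lie to the right of 0.

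Markers of organs were read beside the vegetative actins. Of 6 root markers, 3 rose and 1 fell (2 and 1 with library totals), where 28.9% of all tested genes rose and 27.4% fell, and their summed level was 190 to 206 CPM in the dark and 169 to 186 CPM in light. The root hair genes COBL9 (0.92 ± 0.25) and EXPA7 (0.74 ± 0.26) and SCR, of the root endodermis (0.37 ± 0.06), rose, and PHO1, a phosphate exporter, changed by -0.41 ± 0.07. The EXPA7 call was lost without the rRNA-rich pair, dark library A, dark C, light A or light B, among others (adjusted p up to 0.175). Of 5 leaf markers, 1 rose and 3 fell under both scalings, with sums of 179 to 181 CPM in the dark and 176 to 183 CPM in light. Most of the root sum was PHO1 (means of 148 CPM in the dark and 111 CPM in light) and SCR (44.0 and 56.9 CPM). Group means of EXPA7, COBL9, RHD6 and PLT1 were only 1.53 to 4.21 CPM. PHO1 alone had a negative change, so the lower root sum in light is that of PHO1. Neither list had a sum at or near 0, and their part in the actin changes was not tested.

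The genes whose profile over the 6 libraries lay nearest to each vegetative actin were found among 13126 genes of at least 10 CPM, by Euclidean distance between log2 CPM values centred on their mean. Nearest to ACT2 were AT5G05310 (0.05), AT2G01070 (0.06) and CXIP4 (0.06). For ACT7 they were EIF4A-III, AGP15 and ECT4, and for ACT8 ATU2AF35A, AT4G22753 and SYNC3, at distances of 0.05 to 0.07. ACT2 and ACT8 were 0.29 apart, which made ACT2 number 393 in the order from ACT8 and ACT8 number 748 in the order from ACT2. The 3 genes nearest to ACT2 changed by -0.73 to -0.69, those nearest to ACT7 by 0.59 to 0.61 and those nearest to ACT8 by -0.95 to -0.93. These genes were picked for closeness over the same 6 libraries, so their like changes follow from the choice.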

How the data were processed

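The authors deposited raw counts of reads for genes, exon parts, alternatively spliced parts, introns and splice junctions in 6 libraries. Per the submitters' processing notes, the tools were TopHat2 2.0.9 and R 3.1 and the build was TAIR10. How reads were counted, whether strand was used and where multiply fitting reads went is not given in the sources used. Per the labels, TruSeq libraries started from 3 µg of RNA, with 12 PCR cycles. The labels do not state separate cultures, so p-values cover the spread among these libraries, which could be technical. The tables name libraries A, B and C in each group while the labels number them, so letters were taken only as names. The most alike pair within a group differed by more than sampling noise (chi-square per degree of freedom 2.61).

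Whole tables were fitted with edgeR 4.0.16 (R 4.3.3, limma 3.58.1): TMM, filterByExpr, quasi-likelihood F test, Benjamini-Hochberg adjustment over all rows tested, calls under 0.05. Use of parts, introns and junctions was modelled with an offset of log(gene count + 0.5). Shares, sums and ratios between actin genes used levels per kilobase of exon, and ratios to reference genes used CPM. All had exact two-sided permutation tests (SciPy 1.17.1). The 15 ribosomal RNA rows stayed in the totals. Scripts were tested on simulated data. Alternatives were library totals, DESeq2 1.42.0, no filter, no rRNA rows, without the rRNA-rich pair, a replicate block and each library left out. By coordinates, no other locus overlapped an actin gene. The nearest was AS1 (AT2G37630), 54 bases from ACT1, which itself rose by 0.31 ± 0.06. Whether reads of neighbouring loci entered actin counts was not tested. Symbols came from the RefSeq gene table (TAIR10.1), used for names only.

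All 8 actins are named, with up to 3 higher and 3 lower called genes per list by adjusted p, and 3 nearest profiles for 3 actins. UBQ10, PP2AA3, ACA9, RHD6, PLT1 and AS1 were named after their values were seen. So were the first ACT2, ACT3 and ACT8 junctions or introns, the retained ACT2 and ACT4 introns and the ACT2 parts. Members and lists were chosen with earlier results of these data known.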

Additional observations from a re-analysis of the deposited data

How the results depend on the processing

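Of 359 recomputed values, 338 stayed on their side of the threshold or, where untested, within the spread between replicates. No called value changed sign. One uncalled value did: ACT3 relative to PP2AA3 was 0.09, and -0.015 without dark library B. The summed actin level changed by -0.49 with library totals and by -0.033 without ACT2, against -0.35. Not dividing by length made the gain of ACT11's share 1.44 percentage points, against 1.73. With no filter on low counts 1 actin junction was called, against 0, and the cause was not tested. Calls over all genes ran from 9554 (DESeq2) to 11595. Formin calls fell from 2 to 1 with DESeq2, without the rRNA-rich pair and without dark library B, light B or light C.

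The replicate block, which pairs libraries by letter, called 11595 genes against 11353 and brought ACT3 past the threshold (0.19 ± 0.07, adjusted p = 0.0308). It changed no other actin call. Deviations of same-letter libraries correlated at -0.07, 0.12 and -0.04, so the letters gave no sign of pairing. Intron use in actins gave no value to recompute, since no actin intron passed the filter. Depth limits ACT4, ACT12 and the introns, none of which passed the filter on low counts.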
